A study of Mus musculus with 24 samples.

Results

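The 7 genes described here encode proteins of the growing neurite. Map1b, Basp1, Gap43, Ncam1, Map2, Mapt and Map1a were picked by name, as growth-associated and microtubule-associated proteins, from the 23306 genes of the deposited expression table. Map1b and Basp1 were set as the early pair and Map2 and Mapt as the late pair. All 7 were in the table and passed the filter on low values, a mean of at least 1 TPM over the libraries of a fit, in every fit. TPM, the share of transcripts scaled to a total of 1000000, is corrected for transcript length, so levels of different genes can be set side by side.

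The mice were female C57BL6 animals that carried the driver Nes-CreERT2, in which tamoxifen switches on a Cre recombinase in cells that use the Nestin promoter, and the RiboTag allele of Rpl22, which gains an HA tag after recombination. They were 9 to 11 weeks old when they received tamoxifen on 5 successive days, and both activity groups carried the same alleles and the same drug. Running mice had a free wheel and sedentary mice a blocked one, for 11, 18 or 27 days. RNA from HA-precipitated ribosomes (IP), labelled as immature neurons of the dentate gyrus, and RNA of the dentate gyrus (input) gave 12 libraries each, so that every group of 1 fraction, 1 activity and 1 day holds 2. The tag stays in every descendant of a recombined cell, whatever that cell becomes. The number of mice behind a library is not stated in the labels.

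Microtubules fill the shaft of axons and dendrites, and the growth cone at the tip holds dynamic microtubules and actin under its membrane. Map1b is the microtubule-associated protein that young neurons make first and is concentrated in growing axons. Map2 marks dendrites and Mapt (tau) binds axonal microtubules. Map1a, a relative of Map1b, is known as the form of mature neurons. Gap43 and Basp1 are acidic proteins on the inner face of the growth cone membrane, where they bind calmodulin and phosphoinositides, and Ncam1 is the neural cell adhesion molecule that carries polysialic acid in young dentate granule neurons.

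The promoters of Map1b, Basp1 and Map2 are shown because Map1b and Basp1 had the largest running differences of the 7 genes in the IP, and Map2 is the late gene set against Map1b. The sequences are the 250 bases before the RefSeq start site on GRCm38.p6, 5′ to 3′ on the gene's strand, at chr13:99516603-99516852 (minus) for Map1b, chr15:25413765-25414014 (minus) for Basp1 and chr1:66175079-66175328 (plus) for Map2. Capitals mark E-boxes (CANNTG), the short motif that basic helix-loop-helix factors such as Neurod1 can bind.
Map1b: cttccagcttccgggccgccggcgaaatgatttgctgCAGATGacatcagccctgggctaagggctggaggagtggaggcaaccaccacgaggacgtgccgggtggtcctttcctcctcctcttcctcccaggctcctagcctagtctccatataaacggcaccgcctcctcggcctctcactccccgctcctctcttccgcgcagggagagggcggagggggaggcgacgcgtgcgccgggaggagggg
Basp1: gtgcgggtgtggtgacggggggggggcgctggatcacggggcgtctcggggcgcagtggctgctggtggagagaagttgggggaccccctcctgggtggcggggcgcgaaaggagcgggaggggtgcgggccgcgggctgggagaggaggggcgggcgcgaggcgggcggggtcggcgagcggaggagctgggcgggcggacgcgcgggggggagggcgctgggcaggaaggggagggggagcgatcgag
Map2: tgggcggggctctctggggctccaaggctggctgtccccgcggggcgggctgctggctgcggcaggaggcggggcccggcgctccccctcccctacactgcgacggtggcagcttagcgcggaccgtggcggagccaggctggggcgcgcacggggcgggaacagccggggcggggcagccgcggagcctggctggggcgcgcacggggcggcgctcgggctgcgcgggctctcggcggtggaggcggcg
The Map1b window held 1 E-box, of the form CAGATG, and those of Basp1 and Map2 held 0. Over 32841 mouse promoter windows of the same length, searched on both strands, 66.2% held a CANNTG and 14.5% a CAGATG. The GC box GGGCGG occurred once in the Map1b window, 4 times in that of Basp1 and 5 times in that of Map2, and 32.8% of all windows held it. TATAAA occurred in the Map1b window, 99 bases before the start site, and in 12.4% of all windows. GC made up 66.4% of the Map1b window, 78.8% of that of Basp1 and 81.2% of that of Map2, against a median of 52.4% over all windows. The Map1a window held 2 E-boxes, 4 GC boxes and a GC share of 66.0%.

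On GRCm38 the GENCODE M21 gene models span chromosome 13, 99421446 to 99516540 (minus) for Map1b, chromosome 15, 25363277 to 25413764 (minus) for Basp1, and chromosome 16, 42248442 to 42340651 (minus) for Gap43. Ncam1 spans chromosome 9, 49502136 to 49798925 (minus), Map2 chromosome 1, 66175273 to 66442583 (plus), Mapt chromosome 11, 104231390 to 104332090 (plus), and Map1a chromosome 2, 121289600 to 121310832 (plus). Ncam1 overlaps Gm11149 and Map1a overlaps Ppip5k1 on the opposite strand. The sources used here do not give the strand setting of the counting, and reads of these pairs cannot be told apart with certainty.

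Markers of immature neurons were higher in the IP than in the input for 8 of 9 genes, and Dcx averaged 119 ± 41.6 TPM in IP libraries and 14.7 ± 1.35 TPM in input libraries (SD, n = 12 libraries each). All 7 progenitor markers were higher in the IP. Of 7 markers of mature granule neurons 5 were lower and 1 was higher, and all 7 interneuron markers, all 6 microglia markers, 4 of 5 markers of oligodendrocyte precursors and 3 of 4 endothelial markers were lower. The astrocyte list was split, with 3 of 8 higher and 3 lower, and its summed level was 2636 to 5030 TPM in IP libraries and 2232 to 3257 TPM in input libraries. Over all genes 41.4% were higher and 28.5% lower, and the astrocyte counts are not far from these shares. With median-of-ratios scaling 3 astrocyte markers were higher and 5 lower, and 0 mature granule neuron markers were higher and 6 lower. Immature neuron markers were then higher in 7 and lower in 0. Of 8 oligodendrocyte markers 6 were lower and 1 was higher, and their summed level was 902 to 1387 TPM in IP libraries and 491 to 787 TPM in input libraries, so that the sum, unlike most of its genes, was higher in the IP. No marker of these lists was at 0 over a whole group. The IP libraries thus held markers of immature neurons above their input level together with markers of other cells. In such bulk samples fewer cells of a type and less RNA per cell cannot be told apart.

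Over the 12 IP libraries Map1b had the highest level of the 7, 1056 ± 295 TPM (SD), which ranked 50th of 23306 genes by mean. Map2 followed at 503 ± 60.7 TPM, Ncam1 at 446 ± 82.8 TPM and Basp1 at 438 ± 114 TPM, where Map2 and Ncam1, and Ncam1 and Basp1, differed by less than either SD of the pair. Map1a averaged 306 ± 86.2 TPM and Mapt 226 ± 39.9 TPM in the IP. Gap43 was far below the others, at 42.3 ± 10.6 TPM, and ranked 5078th in the IP and 2983rd in the input. In the input the order was Map1b at 1018 ± 267 TPM, Map2 at 639 ± 149 TPM, Basp1 at 535 ± 157 TPM, Map1a at 517 ± 132 TPM, Ncam1 at 249 ± 39.7 TPM, Mapt at 142 ± 16.0 TPM and Gap43 at 63.6 ± 16.6 TPM. There Map2 and Basp1, and Basp1 and Map1a, differed by less than either SD of the pair.

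**Figure D1:**
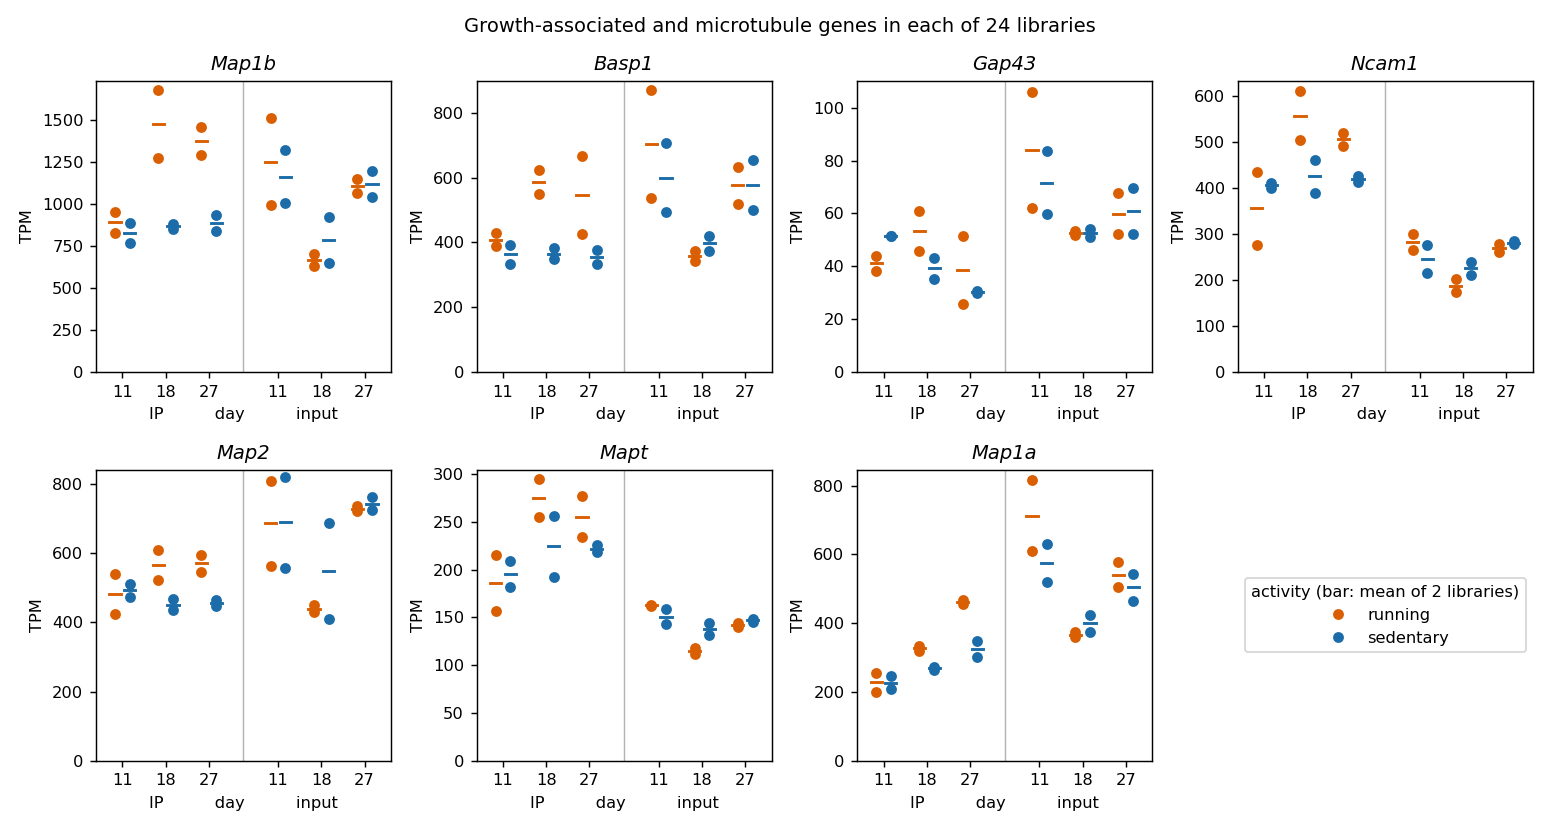
TPM of each gene (vertical axes, from 0) in every library, by fraction and day, with running libraries in orange and sedentary libraries in blue; bars are means of 2 libraries. In the IP, Map1b and Basp1 of running mice lie above those of sedentary mice at days 18 and 27, Map1a climbs with the day, and all 7 genes have their lowest input mean at day 18.

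IP was compared with input to see which of these mRNAs the tagged ribosomes held above or below their share of dentate gyrus RNA. Ncam1 and Mapt were higher in the IP, Map1a, Gap43, Map2 and Basp1 were lower, and Map1b did not pass the test. In limma over all 24 libraries, 41.4% of 19507 genes were called higher and 28.5% lower in the IP at an adjusted p under 0.05, against 2 and 4 of the 7 genes. Differences are on the log2(TPM + 1) scale, and their median over all genes was 0.12. A median-of-ratios scaling moved that median to -0.12 and left these 6 calls and their signs as they were; over all genes it gave 5429 higher and 8124 lower calls, against 8077 and 5554 without it.

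Ncam1 ranged from 277 to 612 TPM in the IP, with a median of 432 TPM, and from 174 to 299.99 TPM in the input, with a median of 263 TPM. The difference was 0.83 ± 0.08 (SE, adjusted p = 1.9e-08), or 1.78-fold, and only the running IP library a of day 11 lay inside the input range. Mapt ranged from 157 to 295 TPM in IP libraries and from 112 to 163 TPM in input libraries, a difference of 0.65 ± 0.07 (adjusted p = 1.07e-07). Again the ranges met through the same day 11 library alone, which held 17.4% of its TPM as the ribonuclease P RNA Rpph1, against 4.58 to 9.16% in the other IP libraries.

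Map1a had the largest difference in the other direction. It ranged from 200.1 to 469 TPM in the IP, with a median of 287 TPM, and from 359 to 816 TPM in the input, with a median of 512 TPM, a difference of -0.76 ± 0.07 (adjusted p = 2.61e-08). Gap43 ranged from 25.9 to 60.8 TPM in IP libraries and from 51.0 to 106 TPM in input libraries (-0.58 ± 0.11, adjusted p = 0.000126). Map2 differed by -0.31 ± 0.09 (adjusted p = 0.00597) and Basp1 by -0.27 ± 0.10 (adjusted p = 0.019), with ranges that overlapped widely. Map1b differed by 0.06 ± 0.09 (adjusted p = 0.605), and its sign depended on the setting. It was -0.23 with median-of-ratios scaling (adjusted p = 0.0589) and -0.24 without the day 18 libraries (adjusted p = 0.0851). Without the letter a libraries of day 11 it was -0.03.

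The 7 genes did not keep these positions from day to day. At day 11 only Ncam1 was called higher in the IP (0.52 ± 0.14, adjusted p = 0.00502). Mapt missed the threshold (0.27 ± 0.12, adjusted p = 0.0821), and its difference was 0.39 without the running IP library a. Map1a, Basp1, Gap43, Map2 and Map1b were lower, and over all genes 29.2% were higher and 12.1% lower. Map1a then stood at 200.1 to 255 TPM in IP libraries and at 519 to 816 TPM in input libraries, a difference of -1.49 ± 0.13 (adjusted p = 3.14e-08). Basp1 differed by -0.72 ± 0.17, Gap43 by -0.71 ± 0.19, Map2 by -0.48 ± 0.16 and Map1b by -0.47 ± 0.16. In each of these 5 genes all 4 IP libraries lay below all 4 input libraries. The share of all genes that separated in this way was not counted. The calls of Map1b and Map2 were lost without the running IP library a, the sedentary IP library b, or either input library b, with adjusted p up to 0.123 for Map1b and 0.135 for Map2, and that of Ncam1 was lost in the fit scaled by median of ratios (0.24, adjusted p = 0.131).

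At day 18 more of the 7 genes were higher in the IP than at day 11. Ncam1 (1.24 ± 0.14), Mapt (0.97 ± 0.12) and Map1b (0.65 ± 0.16) were higher in the IP and Map1a was lower (-0.37 ± 0.13), against 33.0% of genes higher and 31.0% lower. Ncam1 then stood at 391 to 612 TPM in IP libraries and at 174 to 241 TPM in input libraries, with no overlap. Map1b lost its call when libraries were scaled by median of ratios (0.40, adjusted p = 0.0585), and Map1a lost its own without the running input library c (adjusted p = 0.0523) or the sedentary input library d (adjusted p = 0.0599). At day 27 Ncam1 (0.74 ± 0.14) and Mapt (0.71 ± 0.12) were higher, and Gap43 (-0.83 ± 0.19), Map2 (-0.53 ± 0.16) and Map1a (-0.43 ± 0.13) were lower, against 34.6% higher and 14.3% lower over all genes. Without the sedentary input library f the Map1a call of day 27 was lost (adjusted p = 0.0511). Basp1 missed the threshold at day 27 (-0.39 ± 0.17, adjusted p = 0.0636) and passed it under the other scaling (-0.72, adjusted p = 0.00626), and Map1b differed by -0.01 ± 0.16.

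**Figure D2:**
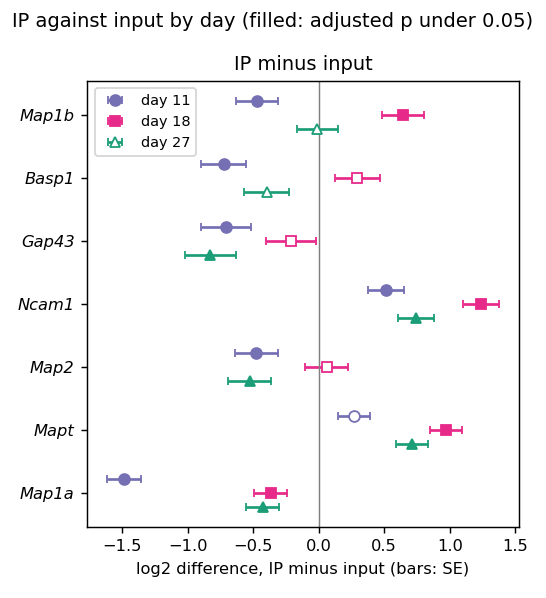
log2 difference of IP minus input (horizontal axis, bars are SE) for each gene at days 11, 18 and 27; filled symbols passed an adjusted p of 0.05. Ncam1 and Mapt lie right of 0 at every day, Map1a lies left of it at every day, and Map1b lies at -0.47, 0.65 and -0.01 on the 3 days.

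A test of the day differences themselves compared the IP with the input. Between days 11 and 18 the IP moved up relative to the input for Map1a (1.12 ± 0.18, adjusted p = 0.000548), Map1b (1.12 ± 0.23, adjusted p = 0.00152), Basp1 (1.02 ± 0.24, adjusted p = 0.00392), Ncam1 (0.72 ± 0.19, adjusted p = 0.0079) and Mapt (0.69 ± 0.17, adjusted p = 0.00494). Map2 and Gap43 did not pass. Over all genes 11.8% were called higher in this test. Between days 11 and 27 only Map1a passed (1.06 ± 0.18, adjusted p = 0.00629), against 1.46% of all genes. With the library letter as a block the Map1a call was lost (adjusted p = 0.0702), and the 348 genes behind that share became 5; leaving out 1 library gave 104 to 1035 genes, the highest without the running input library b of day 11, and kept Map1a (adjusted p up to 0.0313).

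Within the IP, days were compared to follow the genes over time. The cells that carry the tag can differ between days, so a change within cells and a changed mix of cells cannot be told apart. Map1a alone of the 7 passed the test: it rose at day 27 over day 11 by 0.77 ± 0.12 (adjusted p = 0.000883), or 1.71-fold. Its level was 200.1 to 255 TPM in the 4 libraries of day 11, 265 to 334 TPM in those of day 18 and 302 to 469 TPM in those of day 27, so that no day 27 library overlapped day 11. Among 17282 genes tested in the IP, 11.4% rose between these days; 1971 genes rose and 671 fell, and with median-of-ratios scaling 1282 rose and 1505 fell. With any 1 library left out the adjusted p of Map1a was 0.00151 to 0.00929.

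Gap43 stood at 51.6, 25.9, 30.7 and 29.8 TPM in the IP libraries of day 27, against 38.3, 44.0, 51.4 and 51.5 TPM in those of day 11. Of the day 27 values 3 lie below every day 11 value, and that of the running library e lies above them all. The difference was -0.45 ± 0.17 (adjusted p = 0.0924); without that library it was -0.70 (adjusted p = 0.00447), and with libraries scaled by median of ratios it was -0.60 (adjusted p = 0.0453). The late genes did not pass in the IP without the block. Map2 averaged 487 ± 49.999, 508 ± 76.3 and 513 ± 68.3 TPM at days 11, 18 and 27 (SD, n = 4 each), and Mapt 191 ± 26.8, 249.6 ± 42.6 and 239 ± 26.2 TPM. The day 27 against day 11 difference was 0.07 ± 0.13 for Map2, 0.33 ± 0.14 for Mapt (adjusted p = 0.113), 0.36 ± 0.14 for Map1b (adjusted p = 0.0916), 0.29 ± 0.15 for Ncam1 and 0.18 ± 0.15 for Basp1. With the library letter as a block 4 of the 7 passed between days 11 and 18 and 1 between days 18 and 27, with 2327 and 517 genes called. Without the block none of the 7 passed in either comparison. Between days 11 and 18, 5.66% of genes passed in either direction, and between days 18 and 27, 0.122% did. These shares were unstable: leaving out 1 library moved the 978 genes between days 11 and 18 to 131 (without the sedentary library a of day 11) at the lowest and 2679 (without the running library b of day 11) at the highest, and the 21 genes between days 18 and 27 to 0 to 112.

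In the input 6 of the 7 genes fell at day 18 against day 11, and 5 rose between days 18 and 27. The falls were those of Basp1 (-0.75 ± 0.19), Map1a (-0.73 ± 0.14), Map1b (-0.72 ± 0.18), Gap43 (-0.52 ± 0.18), Ncam1 (-0.35 ± 0.13) and Mapt (-0.31 ± 0.10), and Map2 stood at -0.48 ± 0.19 (adjusted p = 0.0579). The calls of Mapt, Gap43 and Ncam1 were each lost in 6 or more of the 12 fits that left out 1 input library. Over all 20462 genes of the input 11.4% were lower and the median was 0.23, with 7736 genes rising and 2338 falling. With median-of-ratios scaling 7128 rose and 4153 fell, with all 7 members among those that fell. Among genes with a mean of at least 5 TPM, as all 7 members have, 1508 rose and 1899 fell. Under that filter the calls of Gap43 and Ncam1 were lost (adjusted p = 0.0614 and 0.0593 in limma). Basp1 ranged from 493 to 871 TPM on day 11, from 344 to 419 TPM on day 18 and from 499 to 653 TPM on day 27, and the day 18 libraries lay below those of both other days. Between days 18 and 27 Map1b, Map2, Basp1, Map1a and Ncam1 rose by 0.42 to 0.63, against 10.4% of genes higher; 0 of the 7 passed without running input library c or sedentary input library c of day 18, running input library e or f or sedentary input library f of day 27, and 2 without running input library d of day 18 or sedentary input library e of day 27. Between days 11 and 27 none of the 7 passed, 0% of genes passed, and 2917 genes had an unadjusted p under 0.05; without the sedentary input library a of day 11, 1380 genes passed, and without any other single library 0 to 2.

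Olfactory receptor genes, whose receptors serve smell in the nose, moved with these input days. On days 11, 18 and 27 the mean over 1122 such genes was 2.42 ± 0.770, 2.96 ± 0.425 and 3.93 ± 0.958 TPM in IP libraries, and 1.99 ± 1.61, 12.3 ± 3.43 and 4.24 ± 1.27 TPM in input libraries (SD, 4 libraries each). The part of this in the day 18 values of the 7 genes was not tested. Since the tests of IP against input at day 18 and of the day differences rest on these input libraries, the same holds there.

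**Figure D3:**
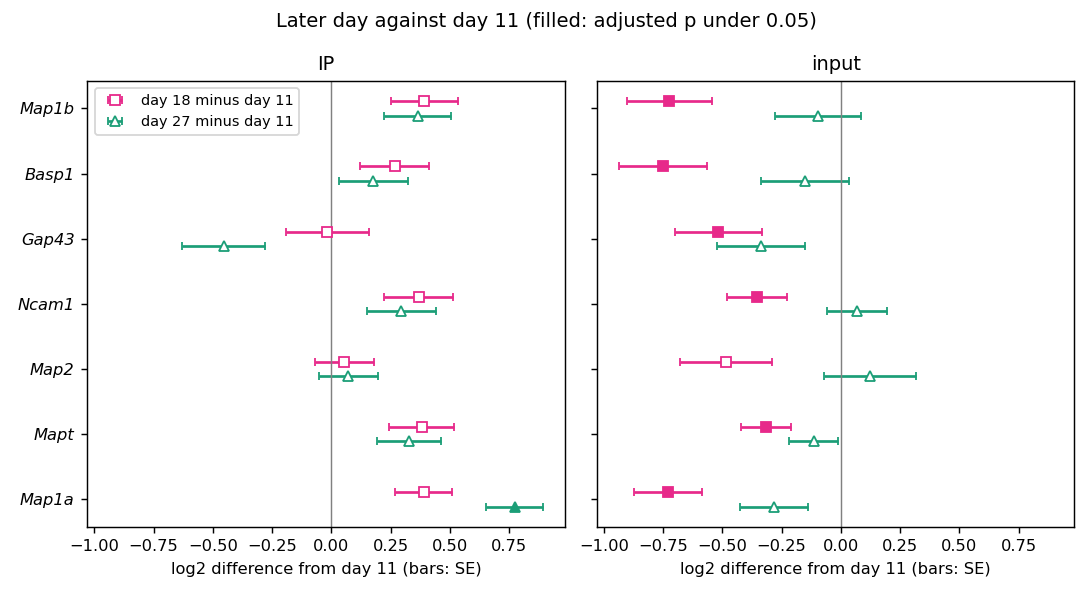
log2 difference of days 18 and 27 from day 11 (horizontal axes, bars are SE) for each gene in the IP (left) and the input (right); filled symbols passed an adjusted p of 0.05. In the IP only Map1a at day 27 passed, at 0.77, and in the input all 7 day 18 symbols lie left of 0, from -0.31 to -0.75.

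Running was compared with a blocked wheel to see whether exercise changed these mRNAs. No member passed the test in the IP, where only 0.00579% of genes, 1 of 17282, did over the mean of the 3 days. Map1b and Basp1 had the largest running differences of the 7. Map1b averaged 1249 ± 316 TPM in running and 863 ± 55.6 TPM in sedentary IP libraries (SD, n = 6 each), a difference of 0.49 ± 0.12 (unadjusted p = 0.000609, adjusted p = 0.145 in limma), or 1.41-fold. Basp1 averaged 514 ± 117 TPM in running and 361 ± 25.8 TPM in sedentary IP libraries, a difference of 0.48 ± 0.12 (unadjusted p = 0.00101, adjusted p = 0.161 in limma). Both missed the threshold after adjustment over all genes, of which 2453 had an unadjusted p under 0.05.

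By day, Map1b stood at 827 and 957 TPM in running and at 890.1 and 771 TPM in sedentary IP libraries at day 11, where the groups overlap. At day 18 it stood at 1682 and 1273 TPM in running and at 882 and 855 TPM in sedentary IP libraries. At day 27 it stood at 1460 and 1295 TPM in running and at 937 and 843 TPM in sedentary IP libraries. At both later days every running library lay above every sedentary one, while the 6 sedentary libraries of the 3 days lay between 771 and 937 TPM.

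Basp1 stood at 389 and 428 TPM in running and at 393 and 335 TPM in sedentary IP libraries at day 11. At day 18 it stood at 625 and 551 TPM in running and at 348 and 383 TPM in sedentary IP libraries. At day 27 it stood at 668 and 426 TPM in running and at 376 and 334 TPM in sedentary IP libraries. As for Map1b, the groups separated at days 18 and 27 and overlapped at day 11. The share of all genes that separated in this way was not counted. With so few libraries per group, such a separation alone does not show a running difference. Running library f of day 27 was the lowest of the 4 later running libraries. Without it the Basp1 difference was 0.59 (adjusted p = 0.0498).

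Map2 and Ncam1 showed the same order at a smaller size. At days 18 and 27 Map2 stood at 522 to 609 TPM in running and at 436 to 466 TPM in sedentary IP libraries, and Ncam1 at 493 to 612 TPM in running and at 391 to 461 TPM in sedentary IP libraries. Their differences over the mean of days were 0.20 ± 0.10 for Map2 and 0.14 ± 0.12 for Ncam1. Map1a stood at 469 and 456 TPM in running and at 349 and 302 TPM in sedentary IP libraries at day 27 (0.51 ± 0.17, adjusted p = 0.399), and differed by 0.00 ± 0.17 at day 11. Mapt differed by 0.14 ± 0.11 and Gap43 by 0.12 ± 0.14 over the mean of days, and the Gap43 groups changed order between day 11 (-0.32 ± 0.25) and day 18 (0.43 ± 0.25). At day 11 Gap43 stood at 38.3 to 44.0 TPM in running and at 51.4 to 51.5 TPM in sedentary IP libraries, with no overlap. All 7 differences over the mean of days were positive, with a median of 0.20, against a median of -0.07 over all genes.

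Taken day by day, running differences of the 7 genes in the IP did not pass at day 11 or day 18, where 0% of genes passed in each, or at day 27, where 0.0289% did; 832, 1550 and 1714 genes had an unadjusted p under 0.05 on these days. At day 18 Map1b differed by 0.75 ± 0.20 (adjusted p = 0.394) and Basp1 by 0.68 ± 0.21 (adjusted p = 0.431). At day 27 Map1b differed by 0.63 ± 0.20 and Basp1 by 0.59 ± 0.21. An F test of whether the running difference depends on the day called 0.00579% of genes and none of the 7 (adjusted p = 0.931 for Map1b and Basp1), so the separation at the later days alone is a description.

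In the input no running difference of the 7 passed, 0% of genes passed over the mean of days, and 858 had an unadjusted p under 0.05. Map1b averaged 1011 ± 320 TPM in running and 1024 ± 232 TPM in sedentary input libraries (-0.05 ± 0.15), and Basp1 547 ± 192 TPM in running and 524 ± 130 TPM in sedentary input libraries (0.03 ± 0.15). At day 18 the running input libraries lay wholly below the sedentary ones for Basp1, Ncam1 and Mapt. Basp1 then stood at 344 to 374.38 TPM in running and at 374.46 to 419 TPM in sedentary input libraries. Running input libraries of Mapt also lay below the sedentary ones at day 27, and above them at day 11. The running difference in the IP minus that in the input was 0.54 ± 0.18 for Map1b and 0.45 ± 0.20 for Basp1, both with an adjusted p of 0.803. This test called 0% of genes, and 1166 had an unadjusted p under 0.05.

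**Figure D4:**
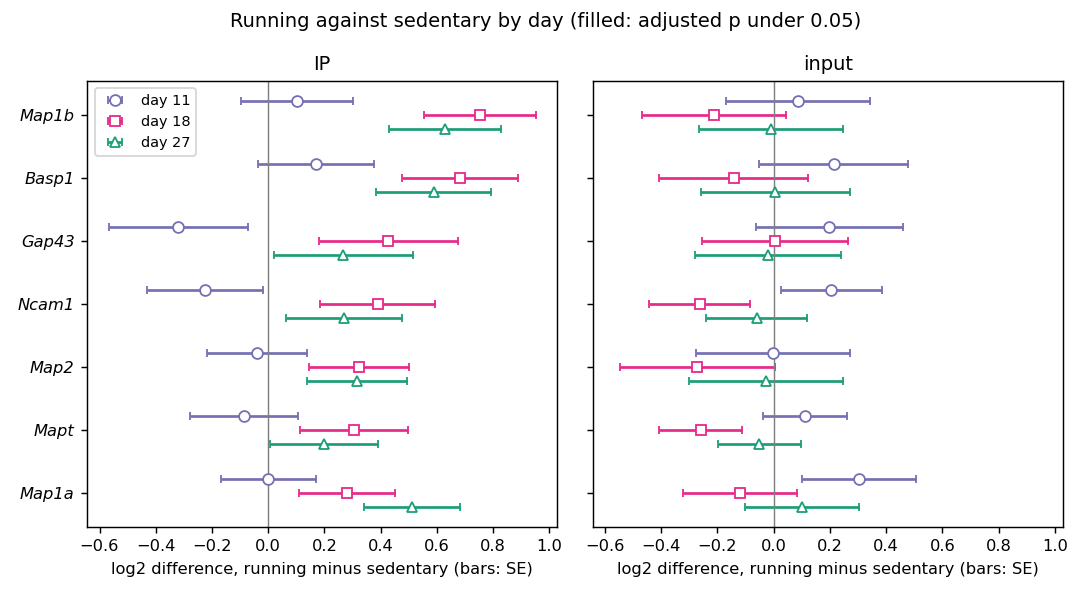
log2 difference of running minus sedentary (horizontal axes, bars are SE) for each gene at days 11, 18 and 27 in the IP (left) and the input (right); open symbols did not pass an adjusted p of 0.05. In the IP the day 18 and day 27 symbols of all 7 genes lie right of 0, with Map1b at 0.75 and 0.63, and none passed.

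No cell type marker passed the test for running in the IP. All 9 immature neuron markers had a positive running difference, with a median of 0.32, and their summed level was 1740 to 3428 TPM in running and 1465 to 2327 TPM in sedentary IP libraries. Calb2, a calcium-binding protein of young granule neurons, averaged 362 ± 157 TPM in running and 177 ± 97.6 TPM in sedentary IP libraries (1.01 ± 0.20, adjusted p = 0.142). All 8 astrocyte markers had a negative one, with a summed level of 2636 to 4047 TPM in running and 3492 to 5030 TPM in sedentary IP libraries. All 8 oligodendrocyte markers were negative too, at 902 to 1244 TPM in running and 1166 to 1387 TPM in sedentary IP libraries. So were all 6 microglia, all 4 endothelial and 4 of 5 oligodendrocyte precursor markers. Progenitor markers were positive in 3 and negative in 4, mature granule neuron markers in 5 and 2, and interneuron markers in 4 and 3. The median over all genes was -0.07, and the share of negative genes was not counted. The part of these cell types in the Map1b and Basp1 values was not tested.

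The early pair was set against the late pair in each library, as the mean log2(TPM + 1) of Map1b and Basp1 minus that of Map2 and Mapt. This difference was 0.98 ± 0.21 in the IP and 1.26 ± 0.19 in the input (SD, n = 12 each), so the early pair did not stand higher against the late pair in the IP. In the IP it was 0.92 ± 0.18 at day 11, 1.03 ± 0.27 at day 18 and 0.99 ± 0.23 at day 27 (SD, n = 4 each), within the spread of each day, and no fall with time was seen. In running IP libraries it was 0.907 to 1.28, with a mean of 1.14 ± 0.14, and in sedentary IP libraries 0.679 to 0.982, with a mean of 0.82 ± 0.13 (SD, n = 6 each). The score was made from chosen genes and is given without a test.

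The order of IP and input depended on which early gene was set against which late gene. Map1b per Map2, a ratio of TPM that no scaling of a library can move, was 2.07 ± 0.35 in the IP and 1.59 ± 0.16 in the input, while Basp1 per Mapt was 1.94 ± 0.35 in the IP and 3.71 ± 0.80 in the input (SD, n = 12 each). The highest IP value of Basp1 per Mapt, 2.48, lay below the lowest input value, 2.84. On the log2(TPM + 1) scale Map1b minus Mapt was 2.19 ± 0.24 in the IP and 2.79 ± 0.27 in the input, and Basp1 minus Map2 was -0.23 ± 0.22 in the IP and -0.27 ± 0.22 in the input. Map1b per Map2 was 1.95 and 1.77 in running and 1.74 and 1.63 in sedentary IP libraries at day 11, 2.76 and 2.44 in running and 1.89 and 1.96 in sedentary ones at day 18, and 2.46 and 2.37 in running and 2.01 and 1.88 in sedentary ones at day 27. On every day both running IP libraries lay above both sedentary ones, and the gap at day 11 was the smallest. Basp1 per Mapt was 2.48 and 1.99 in running and 2.16 and 1.599 in sedentary IP libraries at day 11, 2.12 and 2.16 in running and 1.36 and 1.996 in sedentary ones at day 18, and 2.41 and 1.82 in running and 1.67 and 1.53 in sedentary ones at day 27. Its groups overlapped at day 11 and did not at the later days. The share of other gene pairs whose ratios separated in this way was not counted. In the input Map1b per Map2 was 1.62 ± 0.17 in running and 1.56 ± 0.16 in sedentary libraries (SD, n = 6 each).

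**Figure D5:**
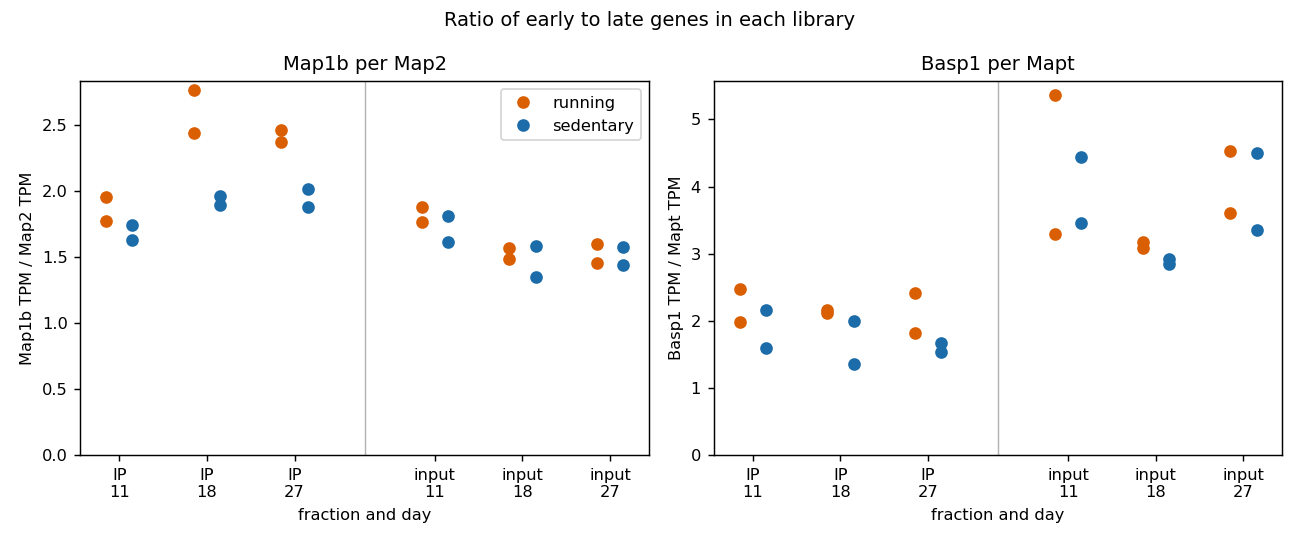
Map1b TPM per Map2 TPM (left) and Basp1 TPM per Mapt TPM (right) in each library, by fraction and day, with running libraries in orange and sedentary libraries in blue. Map1b per Map2 reaches 2.76 in running IP libraries of day 18, and Basp1 per Mapt is below 2.5 in all 12 IP libraries and above 2.8 in all 12 input libraries.

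Other genes of the same machinery were followed in lists set out by role. Of 21 other microtubule-associated proteins 10 were higher and 7 lower in the IP than in the input, with a median difference of 0.01. For IP against input the counts of this list and the other 4 stand against 41.4% of all genes higher and 28.5% lower, and those of the microtubule-associated proteins lie near these shares. Macf1, which links microtubules to actin, averaged 619 ± 115 TPM in IP libraries and 98.2 ± 16.6 TPM in input libraries (2.64 ± 0.09), while Tppp, a tubulin polymerisation factor of oligodendrocytes, averaged 88.7 ± 15.6 TPM in IP libraries and 185 ± 21.2 TPM in input libraries (-1.06 ± 0.06). Camsap3, which holds microtubule minus ends, and Clasp1, which acts at plus ends, were higher.

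Of 17 growth cone membrane and actin proteins 6 were higher and 8 lower in the IP. Dbn1, the actin-binding drebrin, averaged 1309 ± 265 TPM in IP libraries and 243 ± 67.2 TPM in input libraries, and Marcksl1, a membrane protein of the same acidic type as Gap43 and Basp1, 434 ± 117 TPM in IP libraries and 193 ± 51.8 TPM in input libraries. Nrgn, a calmodulin-binding protein of mature dendrites related to Gap43, averaged 817 ± 284 TPM in IP libraries and 1879 ± 353 TPM in input libraries. The actin regulator Pfn2 was lower as well. Adhesion molecules went mostly with Ncam1: 10 of 14 were higher and 4 lower, with a median difference of 0.40. St8sia2, an enzyme that builds polysialic acid on Ncam1, averaged 23.7 ± 6.94 TPM in IP libraries and 4.36 ± 2.18 TPM in input libraries, and Fgfr1, Cntn2 and L1cam were higher by 1.62, 1.52 and 1.15.

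Of 24 kinases and phosphatases that act on the 7 proteins 3 were higher and 12 lower in the IP. Prkca and Prkcb, protein kinase C forms that phosphorylate Gap43, were lower, with differences of -0.81 ± 0.07 and -0.73 ± 0.07, and Ppp3ca, the calcineurin catalytic subunit, averaged 914 ± 269 TPM in IP libraries and 1786 ± 459 TPM in input libraries. Mark3, a kinase of microtubule-associated proteins, was higher by 0.72 ± 0.06. Of 6 tested RNA-binding proteins that act on member mRNAs Khsrp and Hnrnpk were higher, and Elavl4 (HuD), which binds and stabilises Gap43 mRNA, and Elavl2 were lower. With median-of-ratios scaling the counts in the IP were 8 higher and 11 lower for the microtubule-associated proteins, 4 and 10 for the growth cone list, 7 and 4 for adhesion, 1 and 21 for the kinases and phosphatases, and 1 and 4 for the RNA-binding proteins.

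Between days 11 and 27 in the IP, 5 of the 21 microtubule-associated proteins rose and 0 fell, a share of higher calls above the 11.4% of all genes. Map1s, the third member of the Map1 family, averaged 50.7 ± 5.02 TPM in day 27 libraries and 30.2 ± 4.76 TPM in day 11 libraries (SD, 4 libraries each; 0.73 ± 0.12, adjusted p = 0.00109), and Map6 119 ± 14.1 TPM in day 27 libraries and 83.8 ± 7.42 TPM in day 11 libraries. Of the kinases and phosphatases 7 rose and 1 fell: Camk2a, a kinase of mature synapses, averaged 1835 ± 407 TPM in day 27 libraries and 934 ± 58.6 TPM in day 11 libraries. Of the growth cone genes 3 rose, among them Gprin1, a G-protein partner in neurite growth (0.85 ± 0.12), and of the adhesion genes 3, among them Cntn1 (0.74 ± 0.12). Elavl4 fell to 13.9 ± 1.32 TPM at day 27, against 26.7 ± 4.42 TPM at day 11 (-0.89 ± 0.15, adjusted p = 0.00195), and Elavl2 and Hnrnpk fell too. With median-of-ratios scaling 3 microtubule-associated proteins rose and 1 fell, 6 kinases and phosphatases rose and 2 fell, 2 growth cone genes rose and 1 fell, and 1 adhesion gene rose and 2 fell. Over the same days 5 of 7 mature granule neuron markers rose and 4 of 7 progenitor markers fell.

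Running called 0 genes in any of these 5 lists in the IP. Of the growth cone list 14 of 17 had a positive difference, with Nrgn at 0.43 ± 0.14 (adjusted p = 0.224) and Marcksl1 at 0.37 ± 0.14 (adjusted p = 0.262), and of the adhesion list 10 of 14, with Cntn1 at 0.41 ± 0.09 (adjusted p = 0.145). In the input at day 18 against day 11, 9 of 21 microtubule-associated and 9 of 17 growth cone genes fell and 0 rose in either, against 11.4% of all genes lower, and with median-of-ratios scaling 15 and 10 fell and 0 rose. Markers of several cell types fell there too, 5 of 9 of immature neurons, 4 of 8 of astrocytes, 2 of 7 of mature granule neurons and 2 of 8 of oligodendrocytes. Microglia markers fell in 1 of 6, and progenitor markers rose in 2 of 7 and fell in 0. Over all 20462 genes 7736 rose, so the progenitor rises do not stand out. Of 5 oligodendrocyte precursor, 7 interneuron and 4 endothelial markers 0 fell and 0 rose.

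For each of the 7 genes, the genes with the most similar log2(TPM + 1) over the 12 IP libraries were found among 10391 named genes of at least 10 TPM. The libraries share the structure of day and activity, so these values are given as a description. Among the 3 closest to Map1a were Wasf1 (Pearson r = 0.98) and Camk2b, and the closest to Map1b were Ywhag (0.97), Glg1 and Necab3. Zbtb18 (0.98), Usp22 and Lin7c were closest to Map2, and Dpysl4 (0.97), Nrp2 and Pcdhb9 to Mapt. Basp1 was closest to Mrfap1 (0.96), Ssx2ip and Aacs, and Ncam1 to Fasn (0.98), Nrp1 and Men1. Among the 3 closest to Gap43 were Akr1a1 (0.93) and Smarcd3. Spearman's rho of the 21 genes found was 0.853 to 0.986. Each of the 7 had its own 3 nearest genes, with none shared.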

How the data were processed

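RNA of 24 libraries, 12 IP and 12 input, was sequenced after library preparation by the SMARTer kit for stranded total RNA, per the labels' protocols. The authors deposited 1 table of TPM with 23306 genes, in which each library sums to 1000000. RSEM and the build mm10 were used, per the submitters' processing notes. No RSEM version, aligner, gene annotation or strand setting is given in the sources used here. TPM keeps no read depth, so the depth is unknown and precision rests on the spread between libraries. The labels do not tie the 2 libraries of a group to different mice, so p-values reflect only the spread among these samples, possibly technical.

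From the table, log2(TPM + 1) was fitted with limma 3.58.1 in R 4.3.3 (lmFit, eBayes with trend and robust) to group means, for genes whose mean reached 1 TPM: 19507 genes over all 24 libraries, 17282 in the IP and 20462 in the input. Tests were two-sided except the F test, adjustment followed Benjamini-Hochberg over all tested genes of a contrast, and the threshold was 0.05. The log2(TPM + 1) scale understates changes of low genes. The fits were tested on simulated data. Related genes were given as counts per list, with up to 4 named by lowest unadjusted p; the nearest genes were the 3 of highest Pearson r. The members and lists were chosen with earlier results of these data known. Alternatives were a pseudocount of 0.1, no filter, a mean TPM of at least 5, median-of-ratios scaling, the library letter as a block, plain eBayes, leaving out each library, both letter a libraries of day 11, or day 18. Promoter sequences were taken from RefSeq (GRCm38.p6), which held 4 of the 7 genes in the table used; those of Mapt, Gap43 and Ncam1 were not used here. A few genes that the rules would name are not reported here.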

Additional observations from a re-analysis of the deposited data

Results flagged for a closer look

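The difference between days 11 and 18 was not the same in the IP and the input for 5 of the 7 genes, by limma's test of the difference itself. The IP value minus the input value was 1.12 for Map1a (adjusted p = 0.000548), 1.12 for Map1b (adjusted p = 0.00152), 1.02 for Basp1 (adjusted p = 0.00392), 0.72 for Ncam1 (adjusted p = 0.0079) and 0.69 for Mapt (adjusted p = 0.00494). All 5 fell in the input, where the olfactory receptor mean was 12.3 ± 3.43 TPM in day 18 libraries and 1.99 ± 1.61 TPM in day 11 libraries (SD, 4 libraries each), and none passed in the IP. The part of the input libraries of day 18 in these values was not tested.

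Between days 11 and 27 the difference was 1.06 for Map1a (adjusted p = 0.00629). Its estimate does not use the day 18 libraries, but its adjusted p comes from a fit to all 24 libraries. Map1a rose in the IP and did not pass in the input (-0.28 ± 0.14, adjusted p = 0.401). The call was lost with the library letter as a block (adjusted p = 0.0702).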

How the results depend on the processing

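The 6 calls of IP against input over all days held under every alternative run, and no called value changed sign. With the library letter as a replicate block, 2 members were called for running in the IP (main 0), Map1b (0.49, adjusted p = 0.0181) and Basp1 (0.48, adjusted p = 0.0215). Over all genes 440 were called (main 1). In the IP, 4 members and 2327 genes were called at day 18 against 11 (main 978 genes). At day 27 against 11, 4 members and 4182 genes were called (main 2642 genes), and at day 27 against 18, 1 member and 517 genes (main 21 genes). For the IP minus input day 27 difference 0 members were called (Map1a adjusted p = 0.0702), with 5 genes over all (main 348). The block also lost Map1a for IP against input at day 18 (adjusted p = 0.059) and added Map2 for the input fall at day 18 (adjusted p = 0.0083). The letters are not shown to pair libraries, and correlations of their deviations do not settle it. Running and sedentary libraries of 1 letter correlated at 0.20, 0.05 and 0.06 in the IP and at 0.27, 0.08 and 0.08 in the input at days 11, 18 and 27. IP and input libraries of 1 letter correlated at -0.05, -0.01 and -0.03 in running and at -0.28, -0.01 and -0.01 in sedentary mice on these days.

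Genes called for running in the IP numbered 1, and 11 with a mean TPM of at least 5, 3 with median-of-ratios scaling, 3 with plain eBayes and 0 without the letter a libraries of day 11. At day 27 against 11 in the IP, 2642 genes became 1716 with plain eBayes and 636 without those letter a libraries, and 2 members were called with median-of-ratios scaling. In the input, a mean TPM of at least 5 gave 3407 genes at day 18 against 11 (main 10074) and 3 members at day 27 against 18 (main 5); without the letter a libraries 1 member, Gap43 (-0.65, adjusted p = 0.0332), and 1185 genes were called at day 27 against 11 (main 0; 407 with the block). Plain eBayes left 5 genes at day 18 against 11 and 5 at day 27 against 18 in the IP. For the input fall at day 18 it lost the calls of Gap43 (adjusted p = 0.0673) and Ncam1 (adjusted p = 0.0563). The filter of at least 5 TPM gave 2356 genes at day 27 against 18 in the input (main 7592). For the IP minus input day 27 difference, 348 genes became 182 with plain eBayes and 694 without the letter a libraries. With median-of-ratios scaling 1282 genes rose and 1505 fell at day 27 against 11 in the IP, beside the 2 members called. The share of higher among called genes was 46.0%.

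Leaving out 1 library gave 0 to 1 members and 1 to 22 genes for running in the IP, 0 to 2 members at day 18 against 11, 1 to 3 members and 1014 to 4185 genes at day 27 against 11 and 0 to 1 members at day 27 against 18 in the IP, and 3 to 7 members at day 18 against 11 and 0 to 5 at day 27 against 18 in the input. Where it leaves a group with 1 library, that library is assumed to vary like the others. Of 2352 such values 2189 kept direction and side of the threshold. Many of these fits left out a library of a group outside the comparison, which cannot move the estimate. The total is therefore no measure of robustness. The causes were not tested. Depth is unknown and 2 libraries per group limit precision.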
